A study of Mus musculus with 48 samples.

Results

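Aebp1 and 7 genes of the extracellular matrix, Fn1, Postn, Lox, Tnc, Thbs1, Sparc and Fbn1, were followed through all 16 conditions of a study of mouse striatal cells. They are 8 of the 18178 genes listed by symbol in its table of normalized abundance. The 8 were selected on measured values: Aebp1 was put forward because of its difference between the wild-type and the mutant line, so that line contrast is given here for the 8 genes as a description with no test. All 8 had a mean of at least 1 over the 48 samples, the minimum for testing, as did 13409 genes in all; Postn, with a mean of 1.28, lay just above it.

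Aebp1 encodes a secreted protein with a collagen-binding discoidin domain and an inactive carboxypeptidase domain, known from connective tissue, smooth muscle and fat. Matricellular proteins such as thrombospondin (Thbs1), tenascin C (Tnc), Sparc and periostin (Postn) are secreted into the matrix, where they tune adhesion and growth factor signalling more than they bear load. Fibronectin (Fn1) and fibrillin (Fbn1) build the fibrils they sit on, and lysyl oxidase (Lox) crosslinks collagen and elastin; in brain most of these genes are at home in vessels, meninges and scars, and Tnc also in progenitor niches.

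The study asked which molecular changes accompany compounds that protect cells with mutant huntingtin, the protein altered in Huntington's disease. Its cells are conditionally immortalized striatal progenitors on a C57BL/6 background, either wild type (STHdhQ7) or homozygous for a knocked-in huntingtin with an expanded glutamine tract (STHdhQ111). Polyadenylated RNA was sequenced from 3 replicates of each condition after 24 h without serum. Samples were collected on 3 days, at labelled times 1 to 3.

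The STHdhQ7 and the STHdhQ111 control received DMSO and no compound, and the latter is called the vehicle here. The other 14 conditions are STHdhQ111 cells with a compound during the same serum-free 24 h. The dose was 10 uM for diacylglycerol kinase inhibitor II (DKI), selisistat, meclizine, loxapine and cyproheptadine, 5 uM for pizotifen and 250 uM for cysteamine. Sodium butyrate was given at 1 mM and 4-deoxypyridoxine at 4 mM. Fingolimod phosphate was given at 250 nM, trichostatin A at 10 nM, nortriptyline at 1 nM, and nicotinamide and haloperidol at 0.5 nM each. The study put cyproheptadine, loxapine and pizotifen together as Group A, and DKI and meclizine as Group B, from their metabolite profiles.

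Each genotype is represented by 1 cell line, so line and genotype cannot be told apart. Whether the 3 replicates came from separate thaws or cultures is not given in the sources used here. Most compounds were collected in other combinations of day and time than the vehicle; of the 14, only selisistat shares all 3 with it. By the labels, replicates 2 and 3 of DKI and of cyproheptadine also lie in slots of the vehicle, and replicate 1 of each does not. The remaining compounds share no slot with the vehicle. For them, collection slot and compound cannot be told apart in a comparison with it. Values against other compounds of the same slots are given for 7 of them. In such bulk samples fewer cells of a type and less RNA per cell cannot be told apart.

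All levels are normalized abundances on the log2 scale, as deposited, so a difference of 1 is a doubling. Values in the table run from -2.34 to 17.92, and genes with few reads sit near a floor. The transformation behind the scale is not given in the sources used here, the depth of each sample is unknown, and ratios are therefore those of the scale itself. Abundances are not divided by gene length, so every test compared a gene with itself across samples. Where levels of marker genes stand side by side or are summed, gene length is part of them.

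The label of striatal progenitor was checked against 13 marker genes, of which 11 are in the table. In the STHdhQ111 vehicle 6 of them reached a mean of 5, led by the intermediate filament gene Vim at 15.42. The stem cell markers Nes, Sox2 and Pax6 were at 4.96, 4.81 and 2.81 in STHdhQ111 against 10.95, 8.91 and 5.41 in STHdhQ7, and Bcl11b was under 1 in both lines. The neuronal markers Rbfox3, Snap25, Syt1 and Drd1 and the microglial markers Aif1, Cx3cr1 and P2ry12 were all under 0, but their lists also held Map2 at 8.40, Tubb3 at 4.52 and Tmem119 at 7.45 in the vehicle. The stem cell markers Nes, Sox2 and Pax6 thus reached a mean of 5 in the wild-type line and not in the STHdhQ111 vehicle.

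Genes of fibroblasts and mural cells, the usual source of matrix, were also present: 4 of 10 markers reached 5 in the vehicle, with Col1a1 at 14.63 and Pdgfrb at 10.77. Dcn of the same list was at 7.32 in the vehicle and 7.25 in STHdhQ7, while Lum, Fap, Rgs5, Kcnj8 and Abcc9 were under 0 in both lines. The log2 of the summed levels of this list was 14.87, 14.64 and 14.79 in the vehicle samples and 14.65, 15.02 and 15.01 in STHdhQ7, so the lines overlapped. Col1a1 carries this sum, and within the list Acta2 (11.13 in STHdhQ7 against 4.57) and Pdgfra (7.71 against 9.04) differed between lines. Other lists held some high genes, among them the leukocyte gene Ptprc at 10.59 and the endothelial gene Pecam1 at 8.23, beside an endothelial Cdh5 of 0.24.

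Of the 48 libraries, 1 stood apart: haloperidol replicate 2. Its Tnc level was 9.55, against 7.74 and 7.85 in its fellow replicates and 6.98 to 8.57 in the other STHdhQ111 samples. Of the 26 genes higher in STHdhQ7 than in the STHdhQ111 vehicle by over 3, all 26 were higher in this library than in its fellows, by a median of 1.35. The same median was between -0.36 and 0.34 in each of the 45 samples outside haloperidol. Vehicle replicate 1, part of all 14 compound comparisons, was also above its fellows in all 26 genes, by a median of 0.32. Tnc was thus high in this library together with the other genes of the wild-type line.

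The rise held, at smaller sizes, for genes with a smaller line difference. Of 49 genes higher in STHdhQ7 by 2 to 3, all 49 were higher in haloperidol replicate 2 (median 0.61), as were 358 of 369 genes higher by 1 to 2 (median 0.24). Of 53 genes lower in STHdhQ7 by over 2, only 5 were higher (median -0.10). On the linear scale the library lay a median 4.33% of the way from its fellows to STHdhQ7 for the 26 genes, with quartiles of 2.62% and 8.8%. Smooth muscle actin (Acta2) was 8.53 against 4.75 and 5.42, Nes 7.14 against 4.88 and 5.03, and Aebp1 12.87 against 12.93 and 12.90. Gm8290, lower in STHdhQ7 by a difference of -1.10, was also higher in this library, at 9.37 against 6.07 and 8.19. The cause was not tested.

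**Figure D1:**
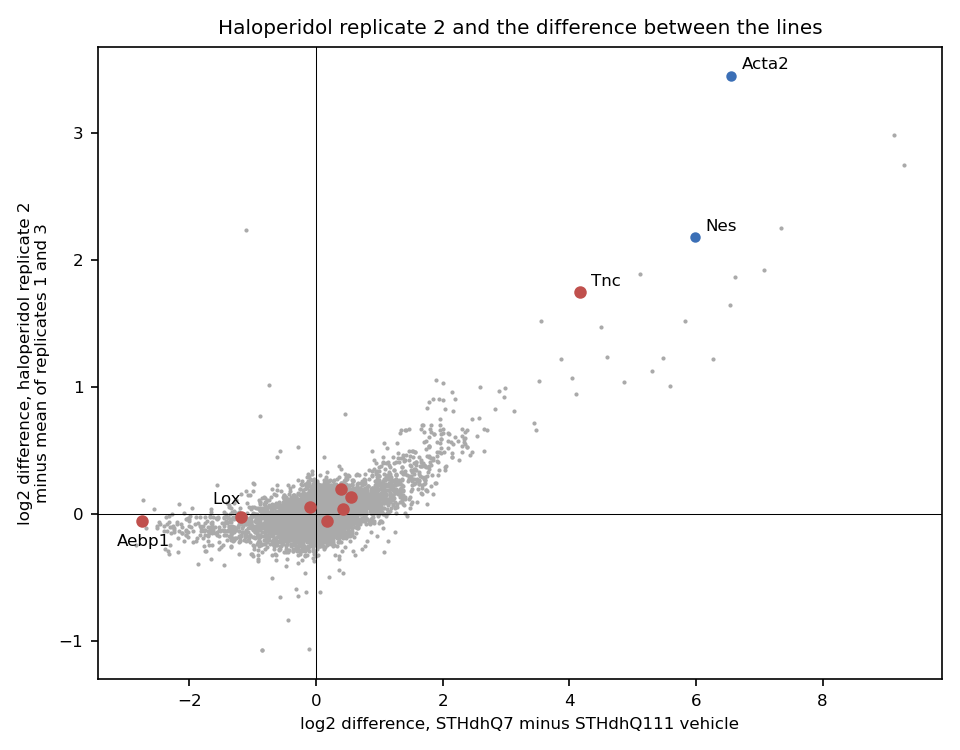
Each point is 1 gene; the horizontal axis is the log2 difference between the STHdhQ7 and the STHdhQ111 vehicle means, and the vertical axis the log2 difference between haloperidol replicate 2 and the mean of replicates 1 and 3. Genes higher in STHdhQ7 rise to the upper right, with Tnc at 4.17 and 1.75, while Aebp1 (-2.75 and -0.05) and Lox (-1.18 and -0.02) stay near 0 on the vertical axis; red points are the 8 genes.

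The haloperidol comparison rests on this library for Tnc. Haloperidol minus vehicle was 0.80 (SE 0.24) with an adjusted p of 0.777 in limma, and 1.14 (SE 0.244) with an adjusted p of 0.0287 without haloperidol replicate 1, which gives replicate 2 more weight. Without haloperidol replicate 2 the Tnc difference was 0.19 (SE 0.162, adjusted p 1). With replicate 2 left out of the fit, an alternative chosen after seeing the data, the SE of Tnc was smaller in all comparisons that leave haloperidol out, and Tnc values of that fit are given with the Group A compounds.

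Between the lines Aebp1 showed the larger level in the mutant. Its level in the STHdhQ7 replicates was 10.05, 10.15 and 10.23, and in the STHdhQ111 vehicle replicates 12.90, 12.89 and 12.88. The lines did not overlap, and all 45 STHdhQ111 samples, treated or not, were above all 3 STHdhQ7 samples. The difference of STHdhQ7 minus STHdhQ111 was -2.75 (SE 0.0662), a ratio of 0.149, and only 1 of 13409 genes had a lower one.

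Tnc had the opposite order. Its level was 11.61, 11.86 and 11.79 in STHdhQ7 and 7.88, 7.51 and 7.35 in the vehicle. The lines were again apart, and all 45 STHdhQ111 samples, haloperidol replicate 2 among them, were below every STHdhQ7 sample. STHdhQ7 was higher by 4.17 (SE 0.24), an 18-fold ratio, and 17 genes had a higher difference.

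The other 6 genes differed less between lines. Lox was 11.18, 11.62 and 11.42 in STHdhQ7 against 12.66, 12.58 and 12.53, a difference of -1.18 (SE 0.113) with no overlap. Fbn1 and Sparc were higher in STHdhQ7 by 0.55 (SE 0.0768) and 0.43 (SE 0.0727), each with no overlap, and for both all 45 STHdhQ111 samples were below every STHdhQ7 sample. Thbs1 (0.39) and Fn1 (-0.09) overlapped between the lines. Postn differed by 0.17 with both lines at the floor. Over all genes tested, 29.2% were called higher and 26.6% lower in STHdhQ7; of the 8 genes, 4 had all STHdhQ7 samples above and 2 all below the vehicle samples, and nothing is read from these counts because this contrast chose Aebp1.

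Aebp1 lies on chromosome 11 (5861947 to 5872088, plus strand, GRCm38, GENCODE M21) and Tnc on chromosome 4 (63959785 to 64047015, minus strand), where 8030451A03Rik overlaps it on the other strand. Their promoters are shown because these genes had the widest separation of the lines, in opposite directions. Of the 8 genes, 5 have an entry in the RefSeq promoter table (GRCm38.p6, 250 bases before to 50 after a start); Fn1, Lox and Thbs1 have none. The sequences read 5′ to 3′ on the gene's strand, at chr11:5861616-5861915 (plus) and chr4:64046966-64047265 (minus), with motif matches in capitals.
Aebp1: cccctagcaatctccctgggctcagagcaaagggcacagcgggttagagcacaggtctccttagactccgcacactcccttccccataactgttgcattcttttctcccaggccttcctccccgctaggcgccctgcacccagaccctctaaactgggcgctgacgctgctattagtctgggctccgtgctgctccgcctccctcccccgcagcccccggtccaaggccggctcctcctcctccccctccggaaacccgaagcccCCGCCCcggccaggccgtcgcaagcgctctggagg
Tnc: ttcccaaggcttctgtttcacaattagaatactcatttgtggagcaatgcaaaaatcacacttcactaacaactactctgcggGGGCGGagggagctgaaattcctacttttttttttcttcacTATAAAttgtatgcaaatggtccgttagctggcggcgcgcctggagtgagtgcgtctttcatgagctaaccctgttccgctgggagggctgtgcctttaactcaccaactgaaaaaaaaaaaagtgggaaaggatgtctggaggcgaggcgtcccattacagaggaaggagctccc

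The capitals mark a GC box (GGGCGG, read on the other strand in Aebp1, 15 past the start) in both, at -167 in Tnc, and a TATA box (TATAAA) at -126 in Tnc. Motifs were searched on both strands: over all 32851 promoters, 35.7% held the GC box, 13.6% TATAAA, 7.81% the AP-1 site TGANTCA, 14.7% the TEAD site GGAATG and 7.15% the E-box CACGTG. The SMAD box GTCTAGAC was in 0.213% and the CAAT box CCAAT in 37.4%. The Aebp1 window is 66.3% G and C and that of Tnc 47.3%, against a median of 52.7%. A match describes letters in the window and says nothing of binding.

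Within the mutant line Aebp1 moved little. Means of the 15 STHdhQ111 conditions ran from 12.76 with cyproheptadine to 13.11 with meclizine, and the 45 samples from 12.61 to 13.22 with a median of 12.88. Meclizine did not overlap the condition next to it, loxapine at 12.91. Below it selisistat (12.90), haloperidol (12.90), vehicle (12.89), nicotinamide (12.88), DKI (12.88), pizotifen (12.87), nortriptyline (12.87) and cysteamine (12.86) followed. Trichostatin A, sodium butyrate and fingolimod phosphate (12.83 each), 4-deoxypyridoxine (12.78) and cyproheptadine came last, each overlapping its neighbour.

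Of the other genes, 6 ranged more widely over the same 15 means: Tnc by 1.25, Thbs1 by 1.04, Lox by 0.78, Sparc by 0.71, Fbn1 by 0.69 and Fn1 by 0.47, against 0.36 for Aebp1. Thbs1 and Sparc were lowest with DKI and meclizine, which overlapped each other and not the next condition up, trichostatin A, in either gene. Lox was highest with pizotifen, loxapine and cyproheptadine, in that order. Tnc was highest with loxapine, then haloperidol, by replicate 2 alone, and cyproheptadine. Fbn1 was lowest with DKI, 4-deoxypyridoxine and meclizine, and Fn1 highest with loxapine at 15.59, which did not overlap sodium butyrate at 15.48. Postn means stayed between 1.22 and 1.33, with all neighbours overlapping.

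**Figure D2:**
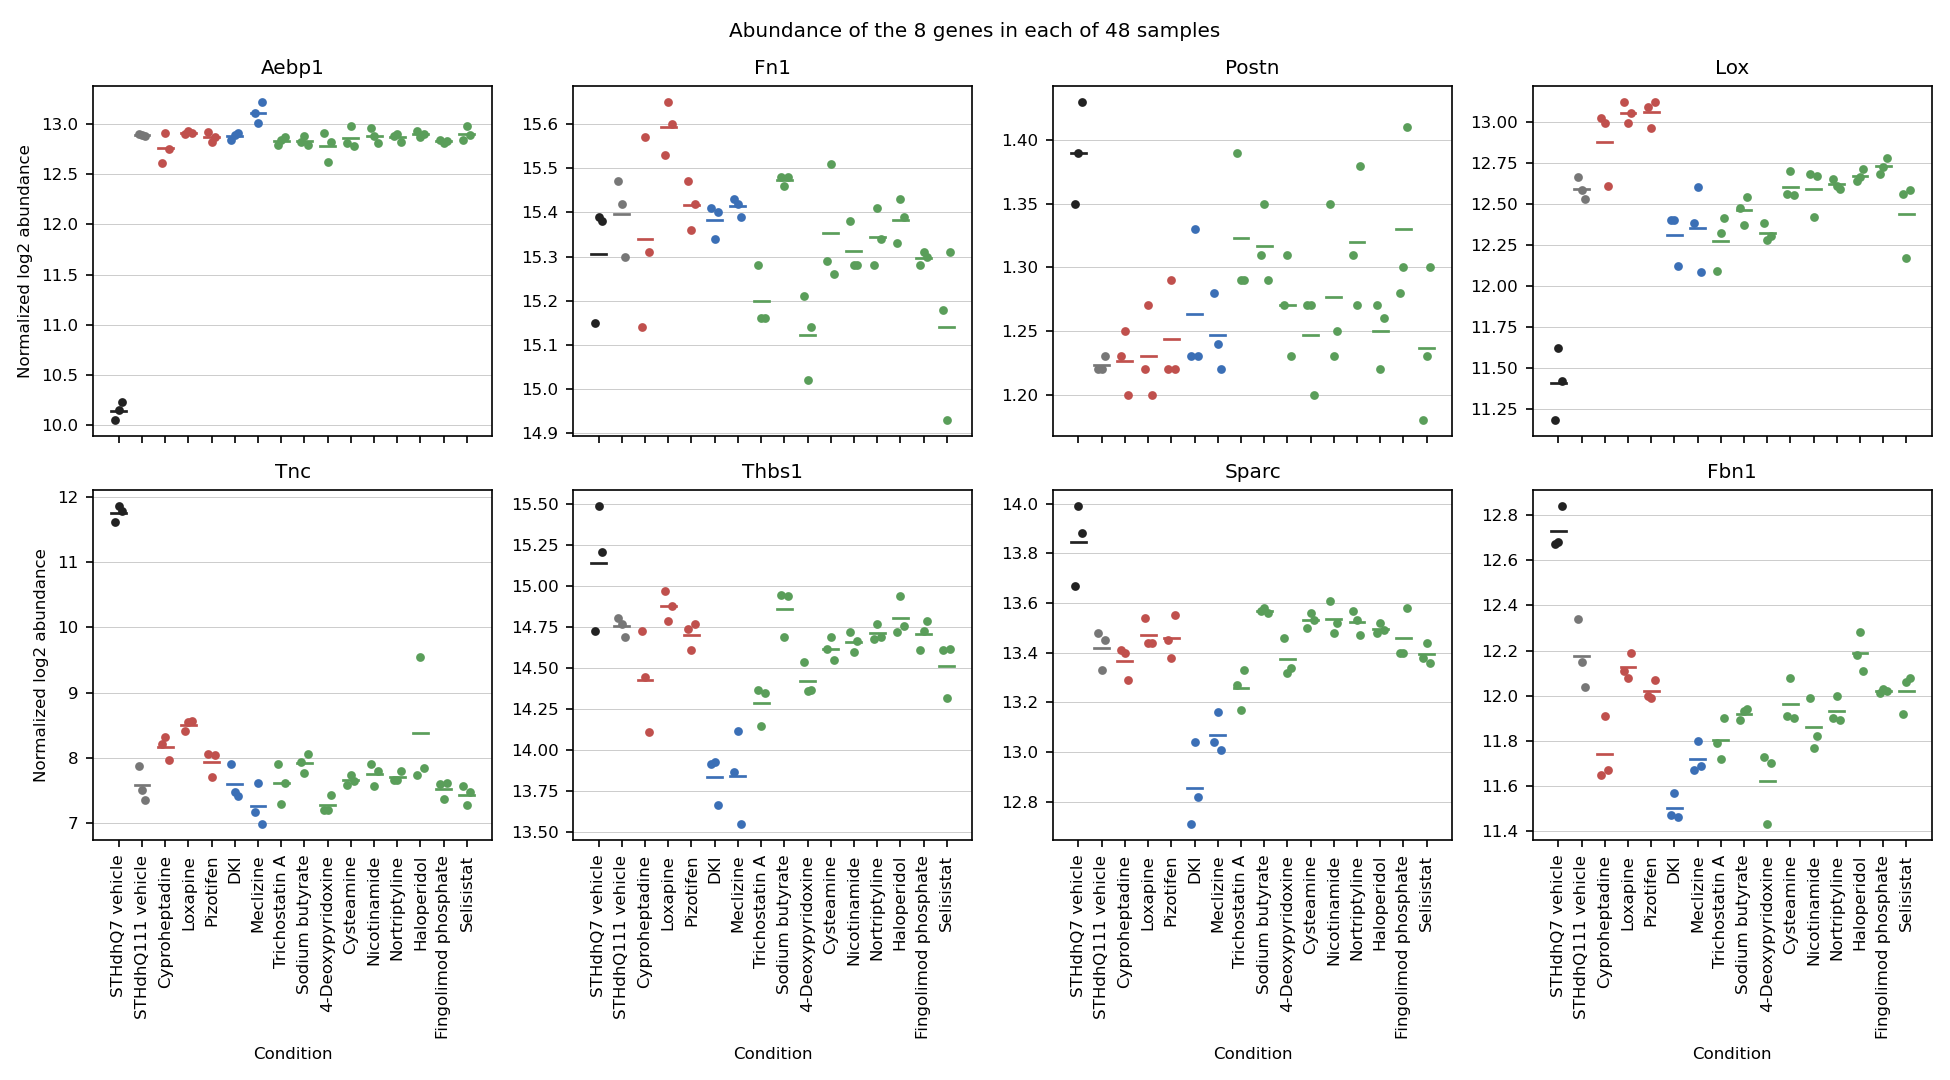
Each panel is 1 gene; points are the 3 replicates of each of the 16 conditions (horizontal axis), bars their means, and the vertical axis the normalized log2 abundance, on a scale of its own in each panel. Black is STHdhQ7, grey the STHdhQ111 vehicle, red Group A, blue Group B and green the other compounds. Aebp1 separates the lines (10.14 against 12.89), Thbs1 and Sparc fall with the Group B compounds, and 1 haloperidol sample of Tnc stands at 9.55.

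The compounds of Group B lowered thrombospondin, Sparc and fibrillin. DKI, an inhibitor of the kinases that phosphorylate diacylglycerol, lowered 4 of the 8 genes and raised 0 by limma (called at a Benjamini-Hochberg adjusted p under 0.05; 4 of 8 had an unadjusted p under 0.05). Over all genes 21.9% were lowered and 20.4% raised. Meclizine, an antihistamine, lowered 3 and raised 1, against 13.6% and 13.1% of all genes (5 of 8 unadjusted). All compound comparisons share the same 3 vehicle samples, so their values are set side by side and not counted as separate support.

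Thbs1, which binds matrix, integrins and CD47 and can activate latent TGF-beta, was 14.81, 14.77 and 14.69 in the vehicle, 13.92, 13.93 and 13.67 with DKI, and 13.87, 14.12 and 13.55 with meclizine. Every treated sample was below every vehicle sample, and the compounds overlapped each other. The difference from vehicle was -0.91 (SE 0.14, adjusted p 1.37e-06) with DKI and -0.91 (SE 0.138, adjusted p 4.04e-06) with meclizine, a fall of the level to a ratio of 0.532 in each. Within collection days it was -0.90 and -0.83 on the 2 days DKI shares with the vehicle, and -1.15 to -0.65 over 3 days for meclizine. The labels put replicate 1 of DKI and of cyproheptadine on day 3 at time 1, where the vehicle has day 1, and whether day 3 is right was not tested. Without the day term 4 genes were still called with DKI.

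Sparc, a collagen-binding protein that loosens adhesion, followed. It was 13.48, 13.33 and 13.45 in the vehicle, 12.71, 13.04 and 12.82 with DKI, and 13.04, 13.16 and 13.01 with meclizine. Again no treated sample reached the vehicle samples. Sparc fell by 0.56 (SE 0.0735, adjusted p 6.93e-08) with DKI and by 0.35 (SE 0.0727, adjusted p 0.000369) with meclizine.

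Fbn1, the backbone of microfibrils, was 12.34, 12.15 and 12.04 in the vehicle, 11.47, 11.57 and 11.46 with DKI, and 11.67, 11.80 and 11.69 with meclizine. The groups were apart from the vehicle and, here, from each other. The difference was -0.68 (SE 0.0777, adjusted p 4.58e-09) with DKI and -0.46 (SE 0.0768, adjusted p 1.73e-05) with meclizine. Vehicle replicate 1 is the highest of the vehicle samples for Fbn1; without it the difference with DKI was -0.60 (adjusted p 2.85e-07).

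Lox and Aebp1 were called in 1 of the Group B compounds each, narrowly. With DKI Lox was 12.40, 12.40 and 12.12, below the vehicle samples at 12.53 to 12.66, with a difference of -0.28 (SE 0.114, adjusted p 0.0447). That call was lost without vehicle replicate 1 (adjusted p 0.135), 2 (0.0798) or 3 (0.0537) and without DKI replicate 3 (0.243). It was also lost with no filter (adjusted p 0.072), with collection time as a term (0.0533) and with only the samples compared (0.154). With meclizine Lox was 12.38, 12.60 and 12.08 and overlapped the vehicle (-0.24, SE 0.113, adjusted p 0.122). Without meclizine replicate 2 it was called (-0.37, adjusted p 0.0211).

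Aebp1 rose with meclizine, the only compound with a called Aebp1 difference. It was 13.11, 13.01 and 13.22 with meclizine against 12.90, 12.89 and 12.88 in the vehicle. All 3 treated samples were above the vehicle samples, and also above every other STHdhQ111 sample. The rise was 0.22 (SE 0.0662, adjusted p 0.0103), or 16.7%, and 0.16 (adjusted p 0.113) without meclizine replicate 3. The call was lost with vehicle and meclizine samples fitted alone (SE 0.0804, adjusted p 0.0556). With DKI Aebp1 was 12.84, 12.89 and 12.91, a difference of -0.01 (adjusted p 0.955).

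Against haloperidol and fingolimod phosphate, collected in the same slots as meclizine, the meclizine differences were 0.25 for Aebp1 (SE 0.0574, adjusted p 0.000953), -0.91 for Thbs1, -0.41 for Sparc and -0.39 for Fbn1, all called. Lox (-0.34, adjusted p 0.00657) and Tnc (-0.70, adjusted p 0.00938) were called as well against this reference, which holds haloperidol replicate 2 and was not fitted without it. Fn1 and Postn were not called with either Group B compound.

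**Figure D3:**
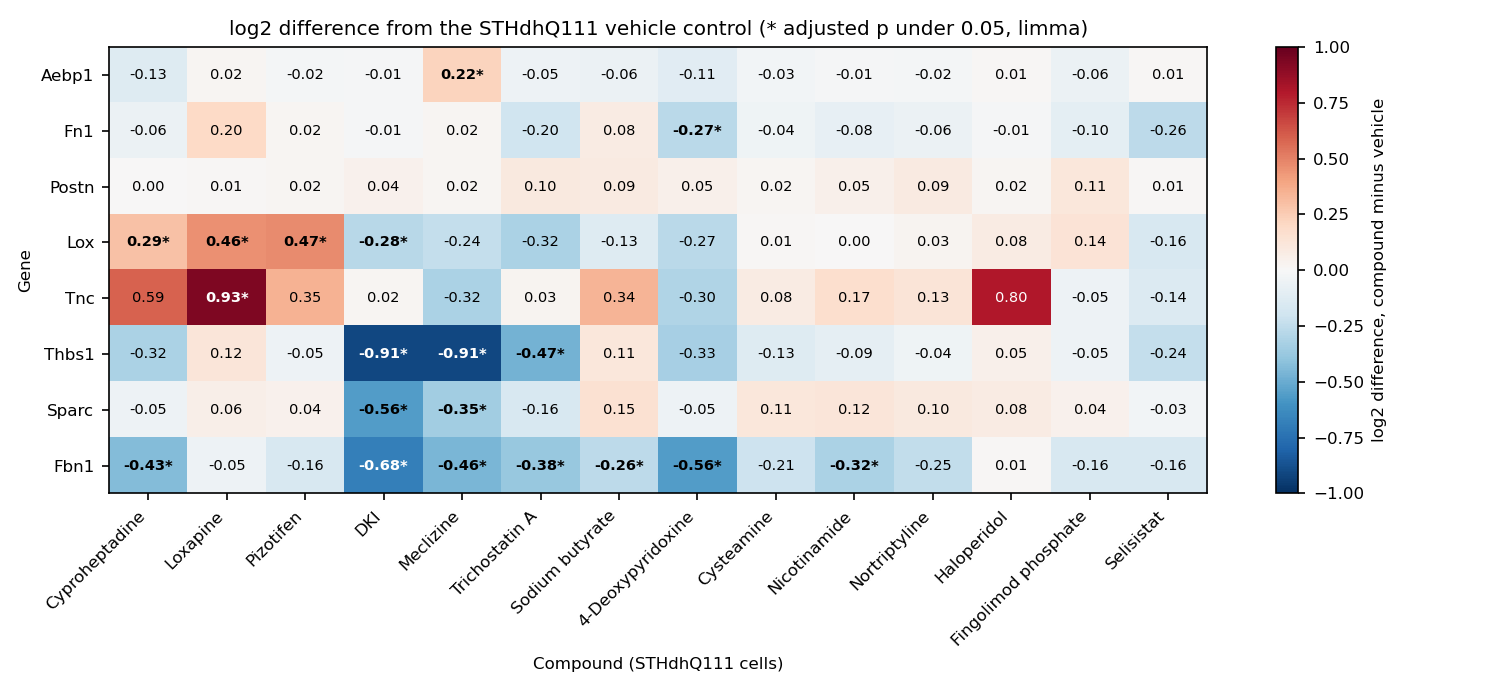
Each cell gives the log2 difference of a compound (columns) from the STHdhQ111 vehicle for 1 gene (lines of the grid), with the colour scale limited at -1 and 1; an asterisk marks an adjusted p under 0.05 in limma. Blue cells for Thbs1, Sparc and Fbn1 stand under DKI and meclizine, red cells for Lox under cyproheptadine, loxapine and pizotifen, and the unstarred Tnc cell under haloperidol (0.80) rests on 1 library.

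Sparc lies on chromosome 11 (55394500 to 55423183) and Fbn1 on chromosome 2 (125300594 to 125507993), both on the minus strand. Thbs1 lies on chromosome 2 (118111876 to 118127133) on the plus strand. The promoters of Sparc (chr11:55420031-55420330, minus strand) and Fbn1 (chr2:125506389-125506688, minus strand) are shown because these genes fell together. Both windows lie inside the gene as annotated, downstream of its outermost 5′ end. No motif of the 7 searched was found in the Sparc window, and Fbn1 holds a GC box at -185, in capitals.
Sparc: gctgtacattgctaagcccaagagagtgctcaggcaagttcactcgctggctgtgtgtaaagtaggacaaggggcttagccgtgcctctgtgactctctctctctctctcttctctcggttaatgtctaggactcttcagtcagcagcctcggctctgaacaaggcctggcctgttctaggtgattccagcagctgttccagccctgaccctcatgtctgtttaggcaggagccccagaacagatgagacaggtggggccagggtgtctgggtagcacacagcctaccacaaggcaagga
Fbn1: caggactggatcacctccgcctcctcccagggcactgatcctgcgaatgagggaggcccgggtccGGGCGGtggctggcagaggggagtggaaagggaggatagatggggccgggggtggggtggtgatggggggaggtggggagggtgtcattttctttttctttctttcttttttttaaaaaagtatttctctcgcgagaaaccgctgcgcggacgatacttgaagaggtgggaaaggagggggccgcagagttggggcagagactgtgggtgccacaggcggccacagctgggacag

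These windows are 55.3% and 60.3% G and C. They share no match among the searched motifs, which says only that these letters are not in both windows.

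Markers of fibroblasts and mural cells moved with these falls. Of the 5 such markers tested, 3 were lowered by DKI (Col1a1 -0.87, Pdgfrb -0.49 and Pdgfra -0.22) and 2 by meclizine (Col1a1 -0.55 and Pdgfrb -0.23), and 0 were raised. The log2 sum of the list was 13.82, 14.05 and 13.94 with DKI and 14.22, 14.28 and 14.27 with meclizine, against 14.64 to 14.87 in the vehicle. Col1a1 is the most abundant of the list, and Lum, Fap, Rgs5, Kcnj8 and Abcc9 were under 0 in all samples. Other marker lists moved too: DKI lowered 3 of 4 astrocyte and 3 of 9 progenitor markers tested, lowered 1 microglial and 1 oligodendrocyte marker, and raised 1 each of the neuronal, endothelial and oligodendrocyte markers. Meclizine lowered 1 progenitor, 1 astrocyte and 1 microglial marker and raised 1 neuronal and 1 oligodendrocyte marker. Cyproheptadine lowered 2 of the 5 fibroblast and mural markers, with a list sum of 14.18 to 14.36, 5 of 9 progenitor and 3 of 4 astrocyte markers, and raised 1 neuronal, 1 microglial and 1 endothelial marker. The lists are short, and their counts were not tested against the shares of all genes lowered. Those shares were 21.9% with DKI, 13.6% with meclizine and 18.2% with cyproheptadine. Counts such as 3 of 4 astrocyte markers with DKI and 5 of 9 progenitor markers with cyproheptadine lie above them. The part of cell composition in the falls was not tested.

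The compounds of Group A raised Lox. The 3 are tricyclic drugs that block serotonin and histamine receptors, and loxapine is an antipsychotic. Loxapine raised 2 of the 8 genes and lowered 0 (10.1% and 11.8% of all genes; 3 of the 8 with an unadjusted p under 0.05 in limma). Pizotifen raised 1 and lowered 0 (8.86% and 9.07%; 2 of 8 unadjusted). Cyproheptadine raised 1 and lowered 1 (17.5% and 18.2%; 4 of 8 unadjusted). With 8 genes 1 called gene is close to the share of all genes, so the counts for cyproheptadine and pizotifen are no result about the set. Cell type markers moved too. Loxapine lowered 2 of 9 progenitor and 1 of 3 neuronal markers and raised 1 endothelial marker. Of 3 microglial markers it raised 2 and lowered 1. Pizotifen lowered 2 of 4 astrocyte and 1 of 9 progenitor markers and raised 1 microglial and 1 endothelial marker. Neither had a fibroblast or mural marker called.

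Lox was 12.66, 12.58 and 12.53 in the vehicle, 13.12, 12.99 and 13.05 with loxapine, 13.09, 12.96 and 13.12 with pizotifen, and 13.02, 12.99 and 12.61 with cyproheptadine. All loxapine and pizotifen samples were above the vehicle, and cyproheptadine replicate 3 was among the vehicle values. Lox rose by 0.46 (SE 0.113, adjusted p 0.00282) with loxapine and by 0.47 (SE 0.113, adjusted p 0.00301) with pizotifen, or 37.6% and 38.2%. Against compounds of the same collection slots these differences were 0.45 (adjusted p 0.000821) and 0.36 (adjusted p 0.00807).

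With cyproheptadine the Lox difference was 0.29 (SE 0.114, adjusted p 0.0474). That call was lost without vehicle replicate 1 (adjusted p 0.0548), 2 (0.101) or 3 (0.141), without cyproheptadine replicate 1 (0.211) or 2 (0.195), and with haloperidol replicate 2 left out of the fit (0.0508). It was also lost with no filter (0.0765), with collection time as a term (0.0576) and with only the samples compared (0.0737). Without cyproheptadine replicate 3 the difference was 0.41 (SE 0.119, adjusted p 0.0072).

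Tnc, an antiadhesive hexameric glycoprotein of developing and injured tissue, was 7.88, 7.51 and 7.35 in the vehicle, 8.41, 8.55 and 8.57 with loxapine, 8.21, 8.32 and 7.96 with cyproheptadine, and 8.05, 7.70 and 8.04 with pizotifen. Loxapine and cyproheptadine samples were all above the vehicle, and pizotifen overlapped it. Tnc rose by 0.93 (SE 0.24, adjusted p 0.00451) with loxapine, and stayed far below the 11.75 of STHdhQ7. With cyproheptadine the difference was 0.59 (SE 0.242, adjusted p 0.0549), and with pizotifen 0.35 (SE 0.24, adjusted p 0.353).

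These Tnc results rest in part on the library that stood apart. With haloperidol replicate 2 left out of the fit the cyproheptadine difference was 0.59 (SE 0.146, adjusted p 0.00153) and called, that of loxapine 0.93 (SE 0.144, adjusted p 1.53e-05), and that of pizotifen 0.35 (adjusted p 0.0926). With only the samples compared, Tnc was called with pizotifen (0.35, adjusted p 0.0128) and cyproheptadine (0.77, adjusted p 0.00222), and with cyproheptadine also at a minimum mean of 5 (adjusted p 0.0472) and without the day term (0.0456). Without vehicle replicate 1, the highest of the vehicle samples, cyproheptadine was also called (0.74, adjusted p 0.0325). Against compounds of its collection slots the loxapine difference was 0.78 (adjusted p 0.00536), while that of pizotifen was -0.03 (adjusted p 0.953), with haloperidol replicate 2 in its reference.

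Fbn1 was lowest with cyproheptadine among the Group A drugs. It was 11.65, 11.91 and 11.67 with cyproheptadine, 12.11, 12.08 and 12.19 with loxapine, and 11.99 to 12.07 with pizotifen, against 12.34, 12.15 and 12.04 in the vehicle. Only cyproheptadine samples were all below the vehicle. Fbn1 fell by 0.43 (SE 0.0777, adjusted p 3.17e-05) with cyproheptadine, and differed by -0.05 (adjusted p 0.71) with loxapine and -0.16 (adjusted p 0.165) with pizotifen. Against compounds of the same slots, loxapine gave the opposite sign (0.24, SE 0.0665, adjusted p 0.00832); these compounds, nicotinamide and nortriptyline, were themselves below the vehicle in Fbn1 (-0.32 and -0.25).

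The remaining genes were not called with Group A compounds in the reported fit. Thbs1 differed by -0.32 with cyproheptadine (SE 0.14, adjusted p 0.0693), and by -0.48 (adjusted p 0.0121) without cyproheptadine replicate 1. Fn1, the adhesive glycoprotein bound by integrins, was 15.53, 15.65 and 15.60 with loxapine and 15.47, 15.42 and 15.30 in the vehicle. The groups did not overlap, but the difference of 0.20 (SE 0.0942) had an adjusted p of 0.138; it was 0.26 (adjusted p 0.016) against compounds of the same slots. Aebp1 differed by -0.13, 0.02 and -0.02 with cyproheptadine, loxapine and pizotifen, and without cyproheptadine replicate 2 the first was -0.21 (adjusted p 0.0214).

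A direct comparison of the groups leaves the vehicle out. The mean of the Group A compounds, 9 samples of 3 compounds, was set against the mean of the Group B compounds, 6 samples of 2 compounds; pizotifen was given at 5 uM and the others at 10 uM. Of the 8 genes 5 were higher and 1 lower in Group A, where 19.9% and 21.4% of all genes were. The share higher is above that of all genes, for genes chosen with results of these data known. The SE and p-values of this comparison rest on the spread of replicates within conditions. The spread between compounds of a group does not enter them, so they concern these compounds only and not wider classes. Loxapine shares no collection slot with DKI or meclizine, so slots also differ between the groups. Of the markers tested, 2 of 5 of fibroblasts and mural cells and 2 of 3 of microglia were also higher in Group A and none lower in limma (0 unadjusted). Of the other lists 1 progenitor, 1 oligodendrocyte and 1 endothelial marker were higher, and 2 progenitor, 1 neuronal and 1 oligodendrocyte marker lower.

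Sparc in Group A had a lowest, median and highest value of 13.29, 13.44 and 13.55, and in Group B 12.71, 13.02 and 13.16. The groups were apart, with a difference of 0.47 (SE 0.0469, adjusted p 1.9e-10). Lox in Group A was 12.61, 13.02 and 13.12, and in Group B 12.08, 12.39 and 12.60. The groups just failed to overlap, at cyproheptadine replicate 3 and meclizine replicate 2, and differed by 0.66 (SE 0.0727, adjusted p 1.58e-09).

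For Thbs1 the values were 14.11, 14.74 and 14.97 in Group A and 13.55, 13.90 and 14.12 in Group B. Only the lowest Group A sample, of cyproheptadine, lay among the Group B values, and the difference was 0.83 (SE 0.0891, adjusted p 1.07e-09). Tnc differed by 0.77 (SE 0.155, adjusted p 8.96e-05) and by 0.77 (SE 0.0932, adjusted p 1.43e-08) without haloperidol replicate 2. Fbn1 differed by 0.36 (SE 0.0496, adjusted p 2.2e-07) and Aebp1, with the higher mean in Group B, by -0.15 (SE 0.0428, adjusted p 0.004). The samples of Tnc, Fbn1 and Aebp1 overlapped. Mean Aebp1 was 13.11 with meclizine but 12.88 with DKI. The latter lay between loxapine (12.91) and pizotifen (12.87), with cyproheptadine lowest at 12.76. Fn1 (0.05, adjusted p 0.536) and Postn (-0.02, adjusted p 0.485) passed no test.

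Single compounds at the matched dose of 10 uM were compared without pooling in 4 pairs, 2 of them between the groups. By the labels, meclizine shares only day 3 at time 1 with cyproheptadine and with DKI, and loxapine shares no slot with cyproheptadine. Collection slot is therefore part of the differences in those pairs. Cyproheptadine and DKI were collected in the same slots. Between them 4 of the 8 genes were called, where 28.6% of all genes were, all higher with cyproheptadine: Thbs1 by 0.59 (SE 0.138, adjusted p 0.00109), Lox by 0.57 (SE 0.113, adjusted p 0.000158), Sparc by 0.51 (SE 0.0727, adjusted p 8.64e-07) and Fbn1 by 0.25 (SE 0.0768, adjusted p 0.0137). In each of the 4 genes all cyproheptadine samples were above all DKI samples. The Fbn1 call was lost without cyproheptadine replicate 2 (adjusted p 0.161) or DKI replicate 3 (0.0542). Tnc differed by 0.57 (SE 0.24, adjusted p 0.0718), and was called with haloperidol replicate 2 left out (adjusted p 0.00257), without DKI replicate 1 (0.0389) or with only the samples compared (0.0211). Without cyproheptadine replicate 2 Aebp1 was called lower (-0.20, adjusted p 0.0319).

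Cyproheptadine against meclizine gave 5 called genes of 8, with 18.8% of all genes called. Tnc was higher by 0.91 (SE 0.242, adjusted p 0.00622), Thbs1 by 0.59 (SE 0.14, adjusted p 0.00223), Lox by 0.52 (SE 0.114, adjusted p 0.000965) and Sparc by 0.30 (SE 0.0735, adjusted p 0.00338). Aebp1 was lower by a difference of -0.35 (SE 0.067, adjusted p 0.000199), with no overlap. Without meclizine replicate 3 Tnc (adjusted p 0.0752) and Thbs1 (0.0705) were no longer called. With only the samples compared, Aebp1 (-0.35, adjusted p 0.12), Lox (0.59, adjusted p 0.0625), Thbs1 (0.64, adjusted p 0.116) and Sparc (0.29, adjusted p 0.0876) were not called. These differences were about as large as in the reported fit. Without haloperidol replicate 2 Tnc differed by 0.92 (adjusted p 1.97e-05). Fbn1 differed by 0.03 (SE 0.0777, adjusted p 0.842).

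The remaining pairs lie within a group. Cyproheptadine against loxapine gave 2 called genes, where 10.5% of all genes were: Fbn1 lower by a difference of -0.38 (SE 0.0777, adjusted p 0.000991) and Thbs1 of -0.44 (SE 0.14, adjusted p 0.0339), each with all cyproheptadine samples below. The Thbs1 call was lost without loxapine replicate 1 (adjusted p 0.118) or 3 (0.099), or cyproheptadine replicate 2 (0.0727) or 3 (0.253), with no filter (0.0553) and with only the samples compared (0.202). Without cyproheptadine replicate 2, Aebp1 (-0.23, adjusted p 0.0338) and Fn1 (-0.37, adjusted p 0.0146) were called lower, as was Tnc (-0.37, adjusted p 0.0482) with only the samples compared.

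DKI against meclizine gave 1 called gene of 8, Aebp1, where 8.11% of all genes were called. It was lower with DKI by a difference of -0.23 (SE 0.067, adjusted p 0.0262), with no overlap, and not called without DKI replicate 1 (adjusted p 0.15) or meclizine replicate 1 (0.053) or 3 (0.223), nor with only the samples compared (adjusted p 0.328). Thbs1 differed by 0.00 (SE 0.14), Sparc by -0.21 (SE 0.0735, adjusted p 0.0639) and Fbn1 by -0.22 (SE 0.0777, adjusted p 0.0797). Without DKI replicate 2 Sparc was called (-0.31, adjusted p 0.0064).

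Among the other compounds, trichostatin A and sodium butyrate both inhibit histone deacetylases, at doses of 10 nM and 1 mM. Trichostatin A lowered 2 of the 8 genes and raised 0 (6.68% and 6.41% of all genes; 6 of the 8 had an unadjusted p under 0.05 in limma). Thbs1 was 14.37, 14.15 and 14.35 and Fbn1 11.79, 11.72 and 11.90, all below the vehicle samples. The differences were -0.47 (SE 0.138, adjusted p 0.0197) and -0.38 (SE 0.0768, adjusted p 0.000814). The Thbs1 call was lost without vehicle replicate 1 (adjusted p 0.0834) or 2 (0.0564) or trichostatin A replicate 2 (0.106). Lox differed by -0.32 (SE 0.113, adjusted p 0.0571) and was called without trichostatin A replicate 3 (-0.39, adjusted p 0.0369).

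Against haloperidol and fingolimod phosphate, of the same slots, trichostatin A gave Thbs1 -0.47 (adjusted p 0.00587), Fbn1 -0.30 (adjusted p 0.00155), Lox -0.42 (adjusted p 0.0024) and Sparc -0.22 (adjusted p 0.0137). Sodium butyrate lowered 1 of the 8 genes and raised 0 (17.8% and 19.6% of all genes; 3 of 8 unadjusted in limma). That gene was Fbn1, at 11.89, 11.93 and 11.94, below the vehicle by a difference of -0.26 (SE 0.0768, adjusted p 0.00749). The value moved with the reference: it was -0.17 (adjusted p 0.115) without vehicle replicate 1, and 0.03 (adjusted p 0.796) against nicotinamide and nortriptyline, of the same slots. With sodium butyrate 3 of the 5 fibroblast and mural markers and 3 of 4 astrocyte markers were raised and 0 lowered (0 unadjusted in limma), and with trichostatin A 2 of the former were raised and 1 lowered. Sodium butyrate also raised 2 of 3 neuronal, 2 of 3 microglial, 1 of 3 oligodendrocyte and 1 of 3 endothelial markers. Of 9 progenitor markers it raised 1 and lowered 2. Trichostatin A raised 1 neuronal and 1 endothelial marker and lowered 1 progenitor marker. Tnc was called higher with sodium butyrate with only the samples compared (0.34, adjusted p 0.0171).

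4-Deoxypyridoxine, an analogue that opposes vitamin B6, lowered 2 of the 8 genes and raised 0 (11.2% and 8.93% of all genes; 4 of 8 unadjusted in limma). Fbn1 was 11.73, 11.43 and 11.70, below all vehicle samples, with a difference of -0.56 (SE 0.0768, adjusted p 4.27e-06) and of -0.27 (adjusted p 0.00625) against compounds of the same slots. Fn1 was 15.21, 15.02 and 15.14, also below the vehicle samples, with a difference of -0.27 (SE 0.0942, adjusted p 0.0351). The Fn1 call was lost against the same slots (-0.20, adjusted p 0.103), without vehicle replicate 1 (adjusted p 0.149) or 2 (0.0959), without 4-deoxypyridoxine replicate 2 (0.192) or 3 (0.0561), and with only the samples compared (0.151). That last fit called Lox (-0.27, adjusted p 0.0266) and Thbs1 (-0.33, adjusted p 0.0493) lower.

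Nicotinamide, at 0.5 nM per the labels, gave 1 called gene, with 10.4% of all genes called. Fbn1 was 11.99, 11.77 and 11.82, below the vehicle, with a difference of -0.32 (SE 0.0768, adjusted p 0.0063). Without vehicle replicate 1 it was -0.23 (adjusted p 0.122), and without nicotinamide replicate 2 -0.27 (adjusted p 0.0777). With nortriptyline Fbn1 differed by -0.25 (SE 0.0768, adjusted p 0.0539), by -0.32 (adjusted p 0.0182) without vehicle replicate 3 and by -0.17 (adjusted p 0.429) without vehicle replicate 1. Fbn1 was thus called lower with 7 of the 14 compounds, all measured against the same vehicle samples.

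The last 5 compounds had 0 of the 8 genes called in limma. For selisistat, an inhibitor of the deacetylase SIRT1, 0.515% of all genes were called and 2 of the 8 had an unadjusted p under 0.05; for cysteamine the figures were 7.83% and 1, and for nortriptyline 3.83% and 2. Fingolimod phosphate had 0.0597% of all genes called and 2 of 8 unadjusted, and haloperidol 0% and 1. Leaving out selisistat replicate 3 called Fn1 (-0.35, adjusted p 0.0267), and leaving out cysteamine replicate 2 (-0.27, adjusted p 0.0479) or vehicle replicate 3 (-0.28, adjusted p 0.0253) called Fbn1 with cysteamine. Against the vehicle that Fbn1 difference was -0.21, and against compounds of the same slots 0.07 (adjusted p 0.851); without vehicle replicate 1 it was -0.13 (adjusted p 0.498). Differences of Aebp1 in these 5 lay between -0.06 and 0.01.

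The partners of these genes were counted in lists chosen by function, some of which share genes. The lists were chosen with earlier results of these data known, so counts above the shares of all genes are no independent support. Of all genes 21.9% were lower and 20.4% higher with DKI, 13.6% and 13.1% with meclizine, 18.2% and 17.5% with cyproheptadine, 9.07% and 8.86% with pizotifen, and 11.8% and 10.1% with loxapine. In Group A against Group B 19.9% were higher and 21.4% lower. The 15 tested kin of the matricellular genes, such as other thrombospondins, spondins and connective tissue growth factor, were called lower in 5 and higher in 0 with DKI and in 4 and 0 with meclizine. Follistatin-like Fstl1 fell by 0.88 with DKI (SE 0.0738, adjusted p 3.24e-12), and Thbs3 by 0.45 with meclizine (SE 0.0667, adjusted p 2.35e-06). In Group A the counts were 7 lower and 3 higher with cyproheptadine, 4 and 3 with pizotifen and 2 and 3 with loxapine. Between the groups 4 were higher and 4 lower in Group A, with a median of 0.01. Osteopontin (Spp1) rose by 1.58 with loxapine (SE 0.165, adjusted p 3.24e-08), while Tgfbi fell by 0.96 with cyproheptadine (SE 0.12, adjusted p 7.05e-08).

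The fibrillar collagens, which Aebp1 protein binds, were lowered in 7 of 10 tested with DKI, 6 with meclizine, 5 with cyproheptadine, 3 with pizotifen and 1 with loxapine, and raised in 2 with loxapine and 0 with the other 4. Their median difference was -0.46 with DKI and -0.36 with meclizine, against -0.01 and 0.00 over all genes. Col3a1 fell by 1.21 with DKI (SE 0.13, adjusted p 1.12e-09), by 0.82 with meclizine (SE 0.128, adjusted p 6.32e-06) and by 1.39 with cyproheptadine (SE 0.13, adjusted p 2.12e-10). Between the groups 7 of 10 were higher and 0 lower in Group A, with a median of 0.24; Col5a2 was higher by 0.46 (SE 0.0615, adjusted p 9.77e-08).

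Genes that crosslink and process collagen, the company of Lox, split otherwise. Of 20 tested, cyproheptadine raised 10 and lowered 4, loxapine raised 7 and lowered 1, and pizotifen raised 4 and lowered 2. The prolyl hydroxylase P4ha1 rose by 0.71 with cyproheptadine (SE 0.0725, adjusted p 1.42e-09). DKI raised 2 and lowered 7, and meclizine raised 2 and lowered 3, with the lysyl oxidase relative Loxl3 falling by 0.55 (SE 0.0811, adjusted p 7.23e-07) and by 0.43 (SE 0.0802, adjusted p 9.65e-05). Loxl3 also fell by 0.52 with cyproheptadine (SE 0.0811, adjusted p 3.84e-06), so it did not share the direction of Lox there. Between the groups 11 were higher and 3 lower in Group A.

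Of 16 partners of fibrillin and elastic fibres, 6 were lower and 0 higher with DKI, 4 and 0 with meclizine, 4 and 2 with cyproheptadine, 2 and 2 with pizotifen and 0 and 3 with loxapine. Emilin1 fell by 0.88 with DKI (SE 0.103, adjusted p 6.75e-09) and by 0.69 with cyproheptadine (SE 0.103, adjusted p 2.01e-06). Group A was higher than Group B in 7 and lower in 0, Mfap5 among them (0.62, SE 0.058, adjusted p 4.59e-11). Of 19 matrix receptors, DKI lowered 9 and raised 1, meclizine lowered 7 and raised 1, cyproheptadine lowered 4 and raised 1, pizotifen 1 and 1, and loxapine 0 and 2. Group A was higher in 10 and lower in 2, with syndecan Sdc4 higher by 0.53 (SE 0.0518, adjusted p 9.5e-11).

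Transcripts tied to signals known to drive matrix genes were counted in a pair of lists. The activity of these signals was not measured. Of 20 genes of the TGF-beta pathway, DKI lowered 8 and raised 2 and meclizine lowered 6 and raised 2; the receptor Tgfbr2 fell by 0.83 (SE 0.0779, adjusted p 4.65e-11) and by 0.61 (SE 0.0771, adjusted p 1.38e-07). Cyproheptadine raised 6 and lowered 6, pizotifen raised 6 and lowered 3, and loxapine raised 7 and lowered 3. Group A was higher in 9 and lower in 1.

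Of 16 targets of SRF and YAP, which respond to actin tension and adhesion, Group A was higher than Group B in 12 and lower in 0, a median of 0.26 against 0.00 over all genes. Ctgf was higher by 1.40 (SE 0.11, adjusted p 5.85e-13) and Cyr61 by 1.03 (SE 0.0966, adjusted p 4.42e-11). Against the vehicle, meclizine lowered 9 and raised 1, DKI lowered 8 and raised 1, cyproheptadine lowered 6 and raised 4, pizotifen lowered 1 and raised 4, and loxapine lowered 0 and raised 4. The raised gene with DKI and meclizine was Ankrd1 (0.56, SE 0.106, adjusted p 4.42e-05, and 0.44, SE 0.105, adjusted p 0.00156), against the direction of the list. Tnc, Thbs1 and Lox are outside this list, while Ctgf and Cyr61 are also among the matricellular kin.

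The 23 proteases and inhibitors that remodel matrix were lowered in 8 and raised in 3 with DKI, 7 and 3 with meclizine, 5 and 6 with cyproheptadine, 2 and 4 with pizotifen and 2 and 6 with loxapine. Tissue plasminogen activator (Plat) fell by 0.87 with DKI (SE 0.087, adjusted p 1.89e-10). Group A was higher in 9 and lower in 4. Of 6 carboxypeptidase relatives of Aebp1, DKI lowered 2, meclizine 1 and loxapine 1, cyproheptadine and pizotifen 0, and none of these 5 raised any in limma; Group A was higher in 2. These carboxypeptidase counts are too small to be set apart from the shares of all genes, and several small counts of the other lists are near those shares too.

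**Figure D4:**
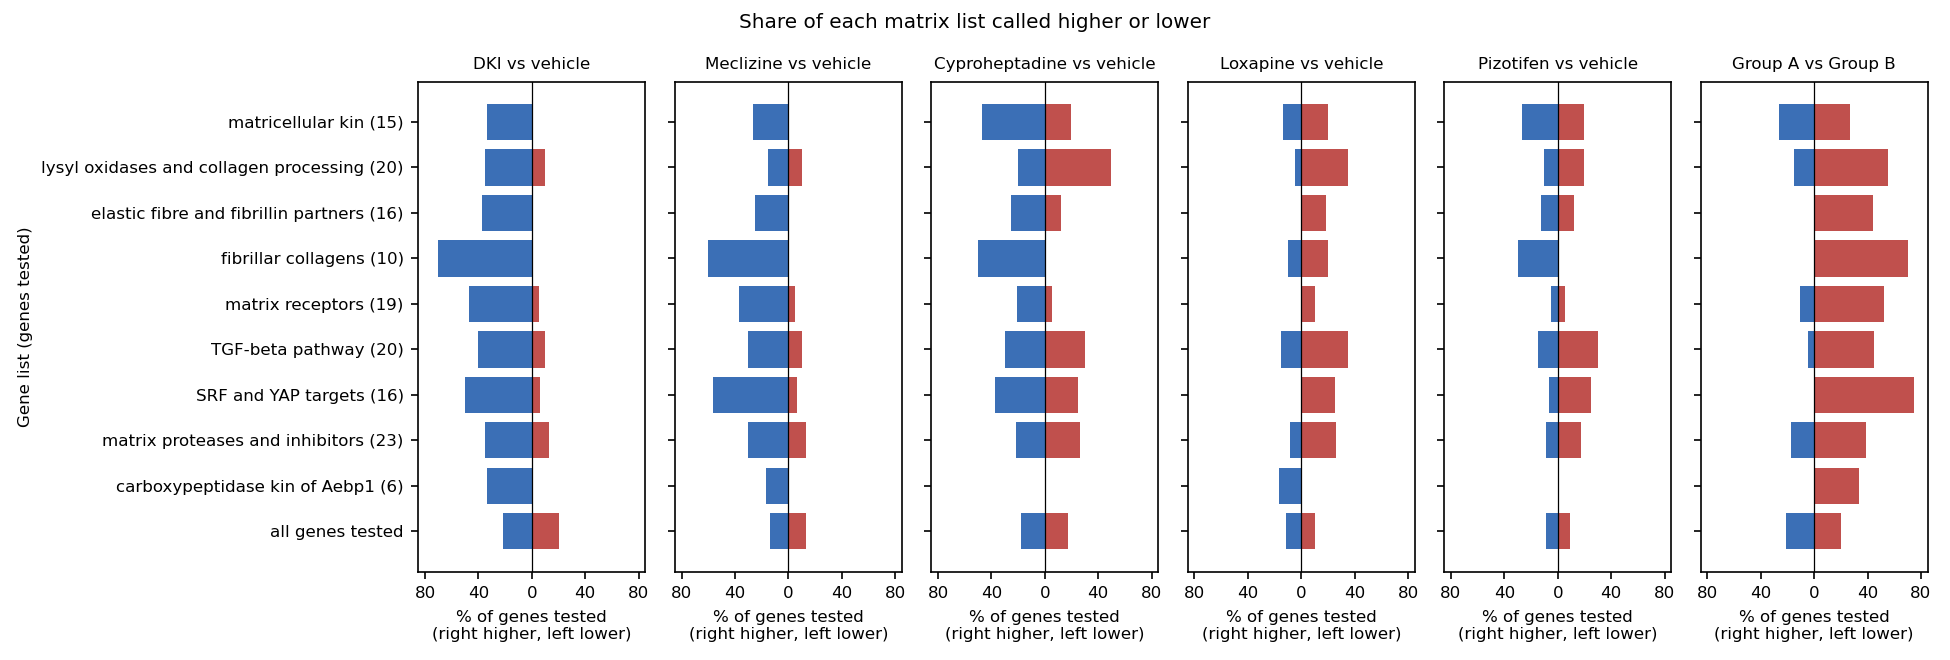
Bars give the share of each list's tested genes (number in brackets) called higher, to the right, or lower, to the left, in 6 comparisons, in percent on the horizontal axis; the lowest bar is all genes tested. SRF and YAP targets and fibrillar collagens reach furthest, with 12 of 16 and 7 of 10 higher in Group A than in Group B and 0 lower.

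The lists were also read between the lines and in 3 more compounds. STHdhQ7 was higher in 13 of 19 receptors, 12 of 20 TGF-beta genes, 12 of 23 proteases and inhibitors and 9 of 16 SRF and YAP targets, and lower in 3, 3, 5 and 2. It was higher in 9 of 20 collagen-processing genes, 9 of 16 elastic fibre genes, 8 of 15 matricellular kin, 4 of 10 fibrillar collagens and 4 of 6 carboxypeptidases, and lower in 4, 4, 5, 3 and 1. Of all genes 29.2% were higher and 26.6% lower, so the collagen counts and several of the lower ones are near those shares. Among the fibrillar collagens, 4 higher and 3 lower, Col1a2 was lower in STHdhQ7 by a difference of -2.69 (SE 0.084, adjusted p 5.78e-26). Sodium butyrate, with 19.6% of all genes raised and 17.8% lowered, raised 7 of the 15 matricellular kin and lowered 0, with Spp1 up by 1.10 (SE 0.165, adjusted p 1.89e-06). It raised 5 and lowered 5 of the 19 receptors, and raised 2 and lowered 7 of the 20 TGF-beta genes. It raised 4 and lowered 1 of both the 10 fibrillar collagens and the 6 carboxypeptidases, and raised 6 and lowered 3 of the 16 elastic fibre genes. Trichostatin A, with 6.41% and 6.68% of all genes, lowered 6 of 20 TGF-beta genes and raised 0, Tgfbr2 falling by 0.51 (SE 0.0771, adjusted p 1.65e-05), and raised 3 of the matricellular kin and lowered 1. It lowered 5 of 16 SRF and YAP targets and raised 0, and lowered 6 of 23 proteases and inhibitors and raised 2. 4-Deoxypyridoxine, with 8.93% of all genes raised and 11.2% lowered, raised at most 4 and lowered at most 3 genes of any list, as with the 20 collagen-processing genes.

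Counts of 0 were given for these lists and for the fibroblast markers. The matching count at an unadjusted p under 0.05 in limma was also 0, with the exceptions given next. Loxapine had 1 elastic fibre gene and 2 receptors lower, cyproheptadine 1 carboxypeptidase lower and pizotifen 1 fibroblast or mural marker lower. With sodium butyrate 1 matricellular relative was lower and with trichostatin A 1 TGF-beta gene higher at that unadjusted level.

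Likeness between genes was described over the 15 STHdhQ111 condition means, with collection day removed. These means share libraries and the correlations carry no test. Thbs1 and Sparc had a Pearson correlation of 0.93, Thbs1 and Fbn1 of 0.80, Lox and Tnc of 0.71, and Sparc and Fbn1 of 0.69. Aebp1 had correlations of -0.39 to 0.32 with Fn1, Lox, Tnc, Thbs1, Sparc and Fbn1, and Fn1 of 0.08 to 0.33 with Thbs1, Sparc and Fbn1, 0.55 with Lox and 0.63 with Tnc. Aebp1 varied little among the compounds (SD of its condition means 0.08, against a median of 0.05 within conditions). Points with DKI and meclizine lie far from the others for Thbs1 and Sparc.

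Ranked were 6279 genes whose mean reached 5 and whose condition means varied enough, which those of Aebp1 and Postn did not. Those most like Aebp1 were Ogt (0.820), which adds N-acetylglucosamine to proteins, Srgap1 (0.780), Gfra1 (0.673), Sema5a (0.671) and N6amt1 (0.654). For Thbs1 they were Plat (0.940) and Sparc (0.933), for Sparc Plat (0.965) and Trib2 (0.948), and for Fbn1 Dag1 (0.918) and Lrig1 (0.910). Lox was most like Bcl10 (0.943) and Sgk1 (0.939), Tnc, whose haloperidol mean holds replicate 2, most like Frmd4a (0.845) and Gcnt2 (0.839), and Fn1 most like Cubn (0.865) and Hic1 (0.850). Postn, at the floor, had Zfp810 (0.812) and Arsk (0.801).

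By position, the 8 genes lie on 6 chromosomes, with Aebp1 and Sparc on chromosome 11 and Thbs1 and Fbn1 on chromosome 2. Fn1 (chromosome 1, 71585520 to 71653200, minus) and Postn (chromosome 3, 54361109 to 54391037, plus) complete the set with Lox (chromosome 18, 52516067 to 52529867, minus). Genes on the opposite strand overlap Fn1 (Apol7d), Lox (AC161119.1), Thbs1 (Gm29233) and Fbn1 (Gm9913), while Aebp1, Postn and Sparc overlap none in the annotation.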

How the data were processed

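Polyadenylated RNA of 48 samples, 16 conditions with 3 replicates each, was measured by RNA sequencing. Per the labels, the authors trimmed reads with Trimmomatic 0.36, quantified them with RSEM on GRCm38.p5 and normalized them with DESeq2. The deposited table holds normalized abundance on a log2 scale, with 27281 entries, 18178 of them with a symbol. It holds no counts, so depth and counting error are unknown, and the 3 replicates set the precision.

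Genes with a symbol and a mean of at least 1 (13409) were fitted with limma 3.58.1 in R 4.3.3, with condition and collection day as terms, all samples in 1 fit (30 residual degrees of freedom) and a variance trend with abundance. Tests were two-sided, p-values were adjusted by Benjamini-Hochberg over all genes tested within a comparison, and genes under 0.05 were called. The code was tested on simulated data. Tables and figures were made in Python 3.11.15 with pandas 2.3.3 and matplotlib 3.10.9.

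The 14 compounds were compared with the STHdhQ111 vehicle, Group A with Group B, and 4 pairs of compounds at 10 uM with each other. Members and lists were chosen with earlier results of these data known. From each list the 2 called genes with the largest rise or fall in a comparison could be named. Acta2, Nes and Gm8290 in haloperidol replicate 2 were chosen after their values were seen. Lists were described by counts and medians.

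Alternatives tried were no filter or a minimum mean of 5, no day term, a replicate block, collection time as a term, only the samples compared, rescaled samples, each replicate left out, a reference of compounds from the same collection slots and, chosen after seeing the data, haloperidol replicate 2 left out. The slot reference was the mean of haloperidol and fingolimod phosphate for meclizine, trichostatin A and pizotifen, and of nicotinamide and nortriptyline for sodium butyrate, loxapine, 4-deoxypyridoxine and cysteamine. No sample was left out of the results as reported. Gene positions came from GENCODE M21 and promoters from RefSeq; proteins and the study's other assays were not used here.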

Additional observations from a re-analysis of the deposited data

Results flagged for a closer look

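The level of Lox in cyproheptadine replicate 3 lay far from the other Group A samples. It was 12.61, the lowest of 9 samples whose median was 13.02 and highest value 13.12, and its gap to the nearest sample made up 0.683 of the whole range, against a critical value of 0.493 (Dixon). Highest and lowest samples were examined in 16 sets, the 8 genes in each of Groups A and B. By chance the rule flags about 1 in 20 groups drawn from 1 population. These sets pool compounds and share libraries, so that rate need not hold here. The 1 flag among 16 sets is therefore read as no result. The same library had the lowest Thbs1 (14.11) and Sparc (13.29) of Group A. Without it the Lox difference from the vehicle was 0.41 (SE 0.119, adjusted p 0.0072 in limma) in place of 0.29, and the difference of Group A from Group B was 0.71 (SE 0.0706, adjusted p 2.78e-10) in place of 0.66. Thbs1 then differed from the vehicle by -0.17 (adjusted p 0.425) in place of -0.32. The cause was not tested.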

How the results depend on the processing

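Each alternative was set against the reported fit. Of the differences of the 8 genes called in either of the fits so compared, 2 were reversed, both for Fbn1 and both against the slot-matched reference. Loxapine gave 0.24 in place of -0.05 (adjusted p 0.00832) and sodium butyrate 0.03 in place of -0.26 (adjusted p 0.796). Some differences called in neither of these fits also changed sign there, such as Tnc with pizotifen (0.35 to -0.03) and Fbn1 with cysteamine (-0.21 to 0.07). Both were called in other alternatives, given with those compounds. The pizotifen reference holds haloperidol replicate 2, with a Tnc of 9.55 against 7.74 and 7.85 in its fellow replicates. It was not fitted without that library. The cause was not tested. With the replicate number as a block in place of collection day, all 19 counts of called genes and all 160 differences stayed as they were, called or not; replicate number and day differ in only 2 of the 48 samples, so this block is nearly the same term. Deviations of same-numbered samples had a mean correlation of -0.0487, so the numbers did not pair samples. Rescaling shifted samples by -0.0135 to 0.0027, and 159 differences stayed as they were.

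Counts of called genes among the 8 that moved by over 1.5 times were these. Without a filter cyproheptadine had 1 and cyproheptadine against loxapine 1 in place of 2. With a minimum mean of 5 nortriptyline had 1 in place of 0. Without the day term nortriptyline had 1, sodium butyrate 2 in place of 1 and DKI against meclizine 2 in place of 1. With collection time as a term cyproheptadine had 1 in place of 2. With rescaled samples nortriptyline had 1 in place of 0. With only the samples compared, pizotifen had 2 in place of 1, sodium butyrate 2 in place of 1, cyproheptadine against meclizine 1 in place of 5 and DKI against meclizine 0 in place of 1. Against the slot-matched reference trichostatin A had 4 and loxapine 4 in place of 2, 4-deoxypyridoxine 1 in place of 2 and sodium butyrate 0 in place of 1. The cause of these moves was not tested.

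Leaving out 1 replicate at a time gave ranges of 1 to 2 called genes for cyproheptadine, 3 to 4 for DKI, 3 to 5 for meclizine, 1 to 3 for trichostatin A and 1 to 2 for 4-deoxypyridoxine. They were 0 to 1 each for selisistat, haloperidol, cysteamine, nortriptyline, sodium butyrate and nicotinamide, 0 to 0 for fingolimod phosphate, 1 to 1 for pizotifen and 2 to 2 for loxapine. Group A against Group B gave 6 to 6, cyproheptadine against DKI 3 to 5, against meclizine 3 to 5 and against loxapine 1 to 3, and DKI against meclizine 0 to 2. The line difference of Aebp1 ran from -2.80 to -2.70. A group left with 2 samples was assumed to vary like the others. Unknown depth limits what can be said of Postn at the floor.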

Other observations

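Looked at after the values were seen, vehicle replicate 1 had the highest endothelial marker sum of the vehicle samples (9.18 against 7.66 and 8.07 on the log2 scale) and the highest level of 7 of the 8 genes: Fbn1 (12.34), Tnc (7.88), Lox (12.66), Thbs1 (14.81), Sparc (13.48), Fn1 (15.47) and Aebp1 (12.90). It entered all 14 compound comparisons, and its part in the Fbn1 falls with sodium butyrate and nicotinamide is given with those results.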
